A study of Mus musculus with 2 samples.

Results

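Interferon-stimulated genes are the antiviral and immune genes that cells transcribe when interferon reaches them. A set of 44 such genes was taken by name, and each was read from probe sets that the platform annotation pairs with exactly 1 gene symbol, out of 18193 genes readable in that way. Where a gene had several, the one with the brightest average log2 signal over both arrays was used. Of the 44 genes, 42 had such a probe set. Isg15 was listed only on a probe set shared with another symbol and Ifi44 on none, so both have no value here.

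One sample was ventral prostate of male mice labelled U19/Eaf2 -/-, and it was set against ventral prostate labelled U19/Eaf2 +/+, both at 3 months of age and on the C57BL/6J background. U19/Eaf2 is an androgen-induced partner of the ELL transcription elongation factors with tumour suppressor activity in the prostate, and the series profiled mRNA to ask what differs in the gland without it. Each genotype had 1 sample on 1 array, 2 arrays in all, so that no test between genotypes was possible and every difference below describes these 2 arrays. The labels do not say how the allele was made or whether glands of several animals were pooled. In whole tissue, fewer cells of a type and less RNA per cell cannot be told apart.

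Type I interferons act through a receptor on almost every cell, whose JAK kinases phosphorylate STAT proteins. STAT2 and IRF9 belong to the complex that binds the interferon-stimulated response element in promoters, while interferon-gamma acts mainly at gamma-activated sites. The induced proteins sense viral RNA, degrade or sequester it, block viral entry and budding, attack intracellular vacuoles, and load peptides onto MHC class I. Healthy epithelia keep a low tonic level of many of these transcripts.

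The files hold linear probe-set signals, with each array scaled as a whole. A gene entered when the higher of its 2 signals reached a floor of 166, the 50th percentile of all signals that were not controls, and a signal under the floor was raised to it. Eaf2 itself read 702 on the knockout-labelled array and 691 on the wild-type array. The part of the transcript that was deleted is not given, so this probe set does not check the label. The luminal genes Spink1 and Krt8 were bright on both arrays, at 64718 and 6901 on the knockout-labelled array and 62610 and 6117 on the wild-type array. Of 7 seminal vesicle and coagulating gland genes, 6 lay under the floor on both arrays. The 3' over 5' signal ratio of the Actb controls, a guide to RNA integrity, was 1.65 on the knockout-labelled array and 1.25 on the wild-type array, and that of Gapdh was 0.847 on the knockout-labelled array and 0.714 on the wild-type array.

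The promoter element that many of these genes share is shown here in the 4 members whose log2 ratios were lowest and highest among the entering members that carry it. Each line is the 300 bases from 250 before to 50 after the transcript start, 5′ to 3′ on the gene's own strand, from RefSeq on GRCm38.p6. Gbp2 lies at chr3:142620413-142620712 on the plus strand, Gbp7 at chr3:142530086-142530385 on the plus strand, Igtp at chr11:58199306-58199605 on the plus strand and Trim30a at chr7:104465144-104465443 on the minus strand. Capitals mark the match to the core of the response element, which is GAAA, any 2 bases and GAAA again, or to its reverse complement.
Gbp2: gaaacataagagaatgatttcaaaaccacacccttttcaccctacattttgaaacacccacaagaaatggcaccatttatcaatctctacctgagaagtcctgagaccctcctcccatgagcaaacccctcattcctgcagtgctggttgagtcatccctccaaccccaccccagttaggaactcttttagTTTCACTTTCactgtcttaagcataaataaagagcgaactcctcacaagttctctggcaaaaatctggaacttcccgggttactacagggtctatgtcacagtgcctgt
Gbp7: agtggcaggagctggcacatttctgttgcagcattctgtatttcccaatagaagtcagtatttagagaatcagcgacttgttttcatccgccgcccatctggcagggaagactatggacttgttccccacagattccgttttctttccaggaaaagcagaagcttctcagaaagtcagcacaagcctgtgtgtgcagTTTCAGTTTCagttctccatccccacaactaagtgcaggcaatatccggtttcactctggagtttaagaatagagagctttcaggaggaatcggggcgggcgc
Igtp: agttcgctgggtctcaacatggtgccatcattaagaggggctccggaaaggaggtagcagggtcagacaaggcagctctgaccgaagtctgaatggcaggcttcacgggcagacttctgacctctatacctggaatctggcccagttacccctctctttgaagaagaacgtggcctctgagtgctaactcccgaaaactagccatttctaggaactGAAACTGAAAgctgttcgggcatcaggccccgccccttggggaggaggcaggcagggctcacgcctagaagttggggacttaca
Trim30a: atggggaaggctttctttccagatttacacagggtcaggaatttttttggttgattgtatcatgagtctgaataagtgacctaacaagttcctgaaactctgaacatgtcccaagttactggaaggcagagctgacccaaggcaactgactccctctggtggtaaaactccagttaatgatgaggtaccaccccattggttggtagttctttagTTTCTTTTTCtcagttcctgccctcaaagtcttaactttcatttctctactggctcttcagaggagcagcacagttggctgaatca

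The match began 59 bases before the start in Gbp2, 53 before it in Gbp7, 34 before it in Igtp and 36 before it in Trim30a. In Igtp it read on the coding strand, and in Gbp2, Gbp7 and Trim30a on the other strand. Of the 44 members, 34 were matched by symbol to a promoter window in the RefSeq table, and Dhx58, Ifi27, Mx1, Mx2, Nlrc5, Oas2, Parp14, Parp9, Tap2 and Usp18 were not. On either strand, 18 of these 34, or 52.9%, held this core, against 3.99% of the 27025 genes in the table. TTCNNNGAA, the gamma-activated site, which reads the same on both strands, was held by 12 members, or 35.3%, against 9.55% of all genes. The motif pair occurred together in 6 members, and the matches overlapped in 2 of them, Bst2 and Ifitm3. Of 28 matches to the core in the members' windows, counted in each window separately, 20 began within 150 bases before the start. Matches to the core also overlapped one another in Bst2, Gbp3, Irgm1, Isg15 and Oas1a. A match of letters is a description of the window and not evidence of binding.

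**Figure D1:**
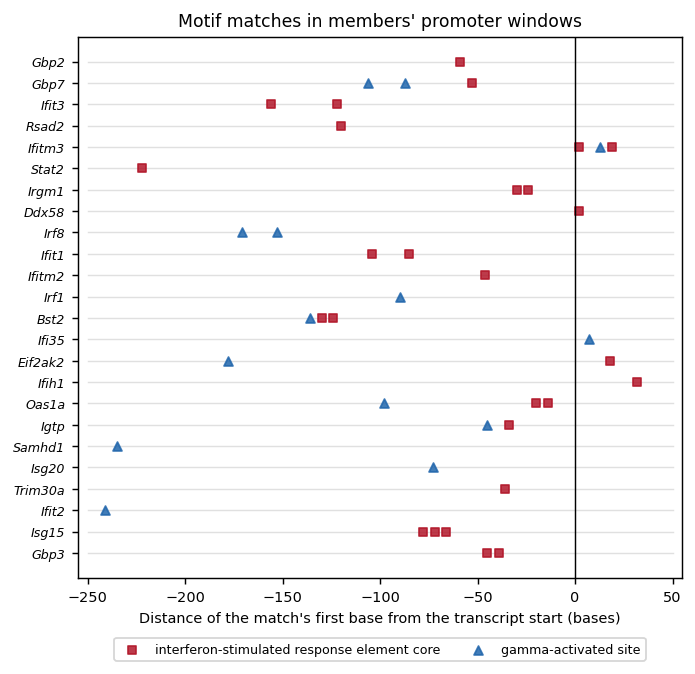
Distance in bases from the transcript start (x axis) of each match to the interferon-stimulated response element core (squares) and the gamma-activated site (triangles) in the first listed window of 24 members (y axis). Genes are ordered from the lowest log2 ratio at the top, with Isg15 and Gbp3, which had no ratio, at the bottom. Most squares sit within 150 bases before the start, and the first 8 genes from the top all carry squares. Members whose window held no match, among them Ifitm1, Irf7 and Oasl2, are not drawn.

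Most members with the response element core and most without it read lower on the knockout-labelled array. The 16 entering members that held the core had a median log2 ratio of -0.35, ranging from -0.91 to 0.25, and 11 of them read lower on the knockout-labelled array. The 15 entering members that had a window without it had a median of -0.31, from -1.18 to 0.45, and 11 of them read lower. Over all entering genes, 53.0% read lower and the median was -0.03. Among members with the core, the lowest value, of Gbp2, is a bound, and its other probe set gave -0.11. The highest, of Trim30a, stood against -0.01 in its other probe set.

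As a set, the interferon-stimulated genes read lower in the gland labelled knockout, with small differences. Of the 44 members, 38 entered, 37 of them with both signals above the floor. Among the 38, 26 or 68.4% read lower on the knockout-labelled array, against 53.0% of all 11671 entering genes. Their median log2 ratio was -0.28, against -0.03 over all entering genes. This median depended on the processing: it was -0.12, against -0.03 over all genes, when each gene took its probe set nearest to 0, and -0.19, against 0.02 over all genes, under a floor set at the 70th percentile. At least 1.5-fold lower were 6 of 38, or 15.8%, beside 6.26% of all entering genes, and at least 1.5-fold higher were 0 of 38, beside 4.69%. Of the 6, Gbp2 entered only through the wild-type array and could only read lower. Without bounds, 5 of 37 members, or 13.5%, were 1.5-fold lower, beside 5.42% of all genes. With the floor at the 70th percentile, 30 members entered and 0 of them were 1.5-fold lower, beside 3.01% of all genes. Gbp2 and Oasl2 no longer entered there. Ifitm1, Irf7, Usp18 and Gbp7 became bounds, since their signals on the knockout-labelled array were under that floor. With no floor, 8 of 42 members, or 19.05%, were 1.5-fold lower, beside 19.07% of all genes, so that the members did not exceed the background there. At 2-fold, 1 member was lower, beside 0.883% of all entering genes, and 0 were higher, beside 0.591%. Macrophage and monocyte markers had a median of -0.26, with 10 of 14 entering markers lower. Of the 10, Cd68 and Fcgr3 entered only through the wild-type array and could only read lower. The summed signal of the 14 was 8444 on the knockout-labelled array and 9066 on the wild-type array. Smooth muscle and fibroblast markers had lower medians, -0.54 and -0.32, dendritic markers -0.04 and lymphocyte markers 0.22. The part of any of these cell types in the result was not tested.

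**Figure D2:**
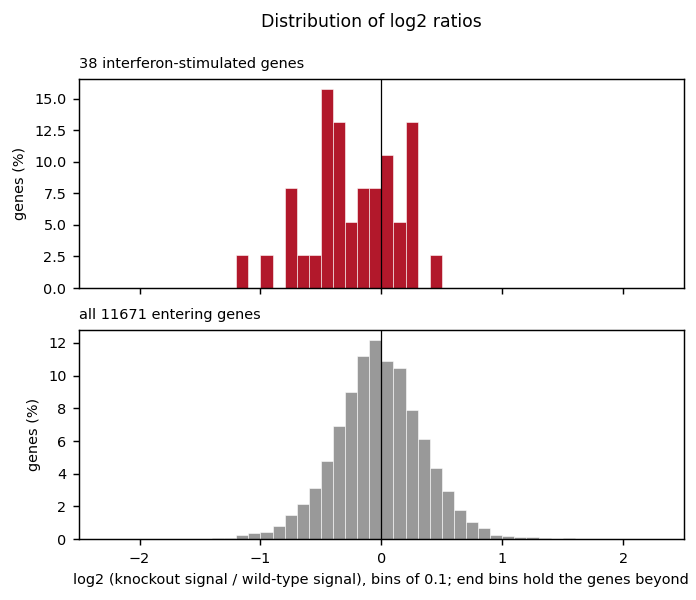
Percent of genes (y axis) by log2 ratio of the knockout-labelled over the wild-type signal (x axis, bins of 0.1), for 38 interferon-stimulated genes (upper panel) and all 11671 entering genes (lower panel). The members spread from -1.18 to 0.45 with more of their mass left of 0, inside the range of all genes.

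With no replicate arrays, the only spread at hand is that between probe sets of a gene. In 4497 genes, 2 or more probe sets exceeded the floor in both samples, and the log2 ratios of a randomly drawn pair differed with an SD of 0.501. Of the members, 7 of 38, or 18.4%, were lower by more than this, beside 8.92% of all entering genes, and 0 were higher by more, beside 7.23%. One of the 7, Gbp2, is a bound. The SD of 0.501 is that of a difference between 2 ratios, and the SD per single probe set was 0.354. This spread holds the error of the probes and nothing of the variation between mice. Error that the probe sets of a gene share on an array is also not in it.

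**Figure D3:**
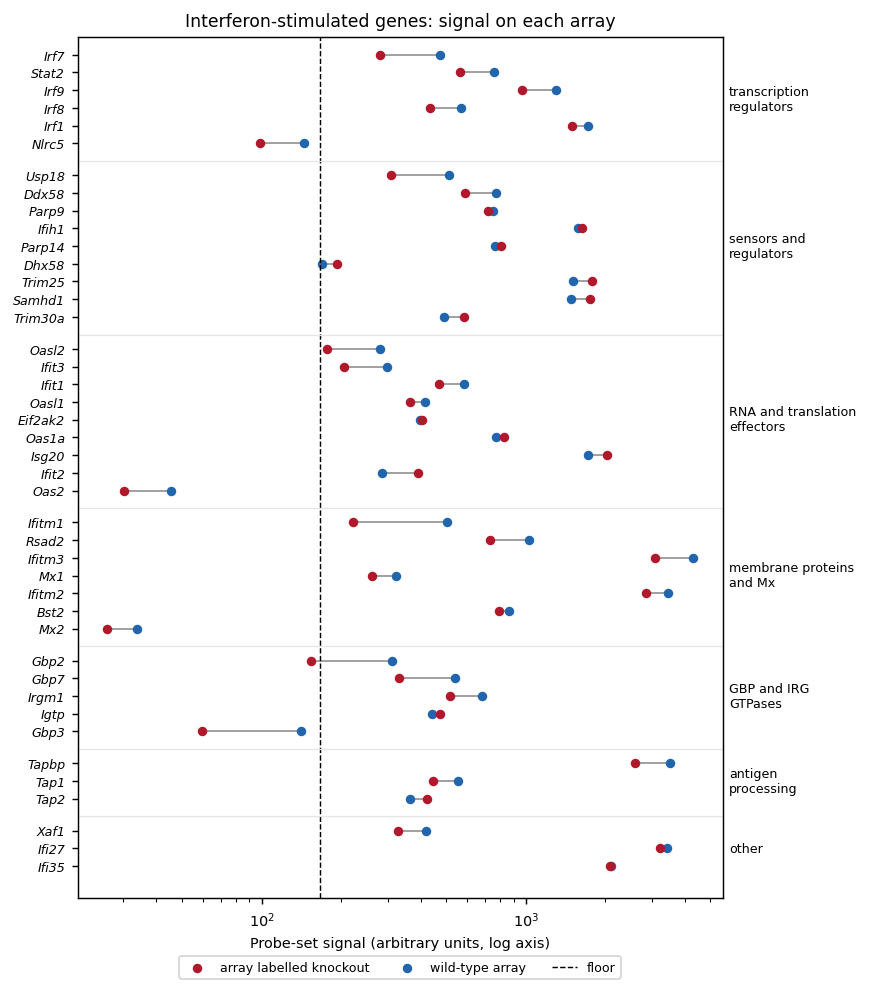
Probe-set signal in arbitrary units (log x axis) of the 42 members with a usable probe set (y axis, grouped by role), on the knockout-labelled array (red) and the wild-type array (blue). The dashed line is the floor of 166. Red lies left of blue in all transcription regulators and all membrane and Mx genes, and the order is mixed among sensors and RNA effectors.

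The transcription regulators that pass the interferon signal to promoters read lower by the probe set used in 5 of 5 entering members. Of all entering genes, 53.0% read lower. The median log2 ratio of the 5 was -0.42, and a further probe set of Irf8 read higher. Irf7, the factor that amplifies type I interferon production, read 280 on the knockout-labelled array and 473 on the wild-type array. Its log2 ratio was -0.76, or 1.69-fold lower, in its only probe set. Stat2 and Irf9 encode members of the complex that binds the response element. Stat2 read 566 on the knockout-labelled array and 759 on the wild-type array, a log2 ratio of -0.42, and its other probe set read 306 on the knockout-labelled array and 453 on the wild-type array, a log2 ratio of -0.57. Irf9 read 971 on the knockout-labelled array and 1299 on the wild-type array, a log2 ratio of -0.42. Both genes thus had lower signals, by about the same log2 amount.

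Irf8, a factor of myeloid and dendritic cells, read 434 on the knockout-labelled array and 568 on the wild-type array, a log2 ratio of -0.39. Its other probe set read 346 on the knockout-labelled array and 285 on the wild-type array, a log2 ratio of 0.28, so the direction of Irf8 depended on the probe set. Irf1, which responds strongly to interferon-gamma, read 1504 on the knockout-labelled array and 1716 on the wild-type array, a log2 ratio of -0.19. Nlrc5, the transactivator of MHC class I genes, lay under the floor on both arrays.

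**Figure D4:**
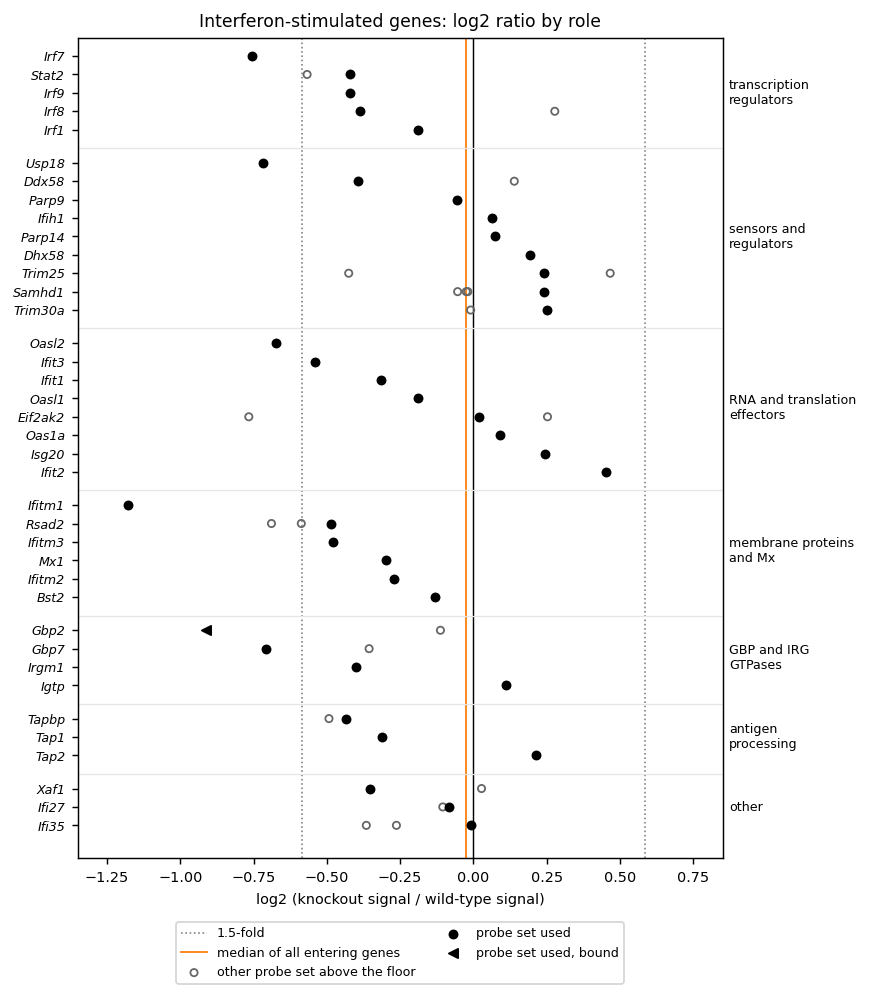
Log2 ratio of the knockout-labelled over the wild-type signal (x axis) for the 38 entering members (y axis, grouped by role). Filled points are the probe set used, the filled triangle is a bound, and open circles are further probe sets that reached the floor. The transcription regulators, membrane and Mx genes have filled points only left of 0, whereas 6 of 9 sensors and their regulators lie right of it.

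By the probe set used, 3 of 9 RNA sensors and their regulators read lower, beside 53.0% of all entering genes. Their median log2 ratio was 0.07. The direction depended on the probe set for Ddx58, Trim25, Samhd1 and Trim30a. Usp18 had the lowest ratio of this group. This protease removes ISG15 from proteins and restrains the type I interferon receptor. Usp18 read 310 on the knockout-labelled array and 511 on the wild-type array, a log2 ratio of -0.72, or 1.65-fold lower, in its only probe set. The cytoplasmic RNA sensor gene Ddx58, which encodes RIG-I, read 588 on the knockout-labelled array and 772 on the wild-type array, a log2 ratio of -0.39. A further probe set gave 0.14, in the opposite direction.

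The related sensor Ifih1, which encodes MDA5, read 1641 on the knockout-labelled array and 1573 on the wild-type array, a log2 ratio of 0.06. Dhx58, which encodes the third helicase of this family, LGP2, read 193 on the knockout-labelled array and 169 on the wild-type array, both close to the floor. Its other 2 probe sets lay under the floor on both arrays, at 39.4 and 45.0 on the knockout-labelled array and 99.4 and 110 on the wild-type array. By the probe set used, the 3 helicase genes therefore lay on both sides of 0. Trim25, a ubiquitin ligase that activates RIG-I, read 1781 on the knockout-labelled array and 1507 on the wild-type array, a log2 ratio of 0.24, with 0.47 and -0.43 in its other 2 probe sets. Samhd1, which depletes the nucleotides needed for reverse transcription, had a log2 ratio of 0.24, but -0.05 to -0.02 in 3 further probe sets that reached the floor. Trim30a, a TRIM family gene of the mouse, also had 0.25, against -0.01 in its other probe set. Of the 6 higher members in this group, Trim25, Samhd1 and Trim30a thus each had at least 1 probe set above the floor on the other side of 0.

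Parp9 and Parp14, ADP-ribosyltransferase family genes that lie on chromosome 16 like Eaf2, read almost equally. Parp9 gave 722 on the knockout-labelled array and 751 on the wild-type array, a log2 ratio of -0.06. Parp14 gave 808 on the knockout-labelled array and 768 on the wild-type array, a log2 ratio of 0.07.

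The effectors that act on RNA and translation were split, 4 lower and 4 higher of 8 entering members, with a median log2 ratio of -0.08. Of all entering genes, 53.0% read lower. The IFIT proteins bind viral RNA and block its translation, and their genes lie close together on chromosome 19. Ifit3 read 205 on the knockout-labelled array and 298 on the wild-type array, a log2 ratio of -0.54. Ifit1 read 471 on the knockout-labelled array and 587 on the wild-type array, a log2 ratio of -0.32. Ifit2 read 390 on the knockout-labelled array and 285 on the wild-type array, a log2 ratio of 0.45, the highest of all entering members. These neighbours, each read by 1 probe set, therefore differed in direction.

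The OAS family makes the 2'-5' oligoadenylates that switch on RNase L, and includes relatives without that activity. Oasl2 read 176 on the knockout-labelled array and 281 on the wild-type array, a log2 ratio of -0.67, with the lower signal just above the floor. Oasl1, which in the mouse restrains Irf7 translation, read 365 on the knockout-labelled array and 416 on the wild-type array, a log2 ratio of -0.19. Oas1a read 826 on the knockout-labelled array and 776 on the wild-type array, a log2 ratio of 0.09, and Oas2 lay under the floor on both arrays. The family thus had its larger difference in Oasl2 and none beyond 1.5-fold in Oasl1 or Oas1a. Eif2ak2, the kinase PKR that stops translation on double-stranded RNA, read 405 on the knockout-labelled array and 399 on the wild-type array, but its other 2 probe sets had log2 ratios of -0.77 and 0.25. The exonuclease gene Isg20 read 2037 on the knockout-labelled array and 1721 on the wild-type array, a log2 ratio of 0.24.

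The antiviral membrane proteins and Mx genes all read lower, 6 of 6 entering members, beside 53.0% of all entering genes. Their median log2 ratio was -0.39, and Rsad2 alone had further probe sets. The IFITM proteins sit in plasma and endosomal membranes and hinder the fusion of viruses with them. Ifitm1 read 223 on the knockout-labelled array and 505 on the wild-type array. Its log2 ratio of -1.18, or 2.26-fold lower, was the lowest of all entering members and rests on a single probe set. Ifitm3 read 3091 on the knockout-labelled array and 4313 on the wild-type array, a log2 ratio of -0.48. Ifitm2 read 2859 on the knockout-labelled array and 3449 on the wild-type array, a log2 ratio of -0.27. All 3 neighbouring Ifitm genes of chromosome 7 were thus lower, by unequal amounts.

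Rsad2 encodes viperin, an antiviral enzyme of the endoplasmic reticulum and lipid droplets. It read 734 on the knockout-labelled array and 1030 on the wild-type array, a log2 ratio of -0.49. Its other 2 probe sets read 288 and 306 on the knockout-labelled array and 433 and 494 on the wild-type array, with log2 ratios of -0.59 and -0.69. All 3 probe sets of Rsad2 were therefore lower and lay within a narrow range. Bst2, the tetherin that holds budding virions, read 792 on the knockout-labelled array and 867 on the wild-type array, a log2 ratio of -0.13. Mx1 read 263 on the knockout-labelled array and 323 on the wild-type array, a log2 ratio of -0.30, and Mx2 lay under the floor on both arrays. RefSeq lists Mx1 and Mx2 as transcribed pseudogenes in the C57BL/6J assembly, so their signals are transcripts without a known working protein in this strain.

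The GTPases that interferon-gamma induces most strongly attack vacuoles that hold microbes. They were lower in 3 of 4 entering members, beside 53.0% of all entering genes, with a median log2 ratio of -0.55. Gbp2 read 154 on the knockout-labelled array, under the floor, and 312 on the wild-type array, at least 1.88-fold lower. It entered only through the wild-type array, and its other probe set read 181 on the knockout-labelled array and 196 on the wild-type array, a log2 ratio of -0.11. Gbp7 read 332 on the knockout-labelled array and 542 on the wild-type array, a log2 ratio of -0.71, and its other probe set gave -0.36, a bound. Gbp3, the neighbour of Gbp7 on chromosome 3, was listed at 59.5 on the knockout-labelled array and 141 on the wild-type array, both under the floor, and has no ratio. The sizes thus depended on the probe set, and a probe set that entered only through the wild-type array could only read lower.

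Irgm1, an immunity-related GTPase, read 516 on the knockout-labelled array and 681 on the wild-type array, a log2 ratio of -0.40. Igtp, of the same family, read 476 on the knockout-labelled array and 440 on the wild-type array, a log2 ratio of 0.11. The promoters of Gbp7 and Igtp printed above both hold the response element core and a gamma-activated site, and these genes lay on opposite sides of 0.

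In antigen processing, Tapbp encodes tapasin, which bridges MHC class I molecules to the peptide transporter. Tapbp read 2597 on the knockout-labelled array and 3513 on the wild-type array, a log2 ratio of -0.44, and its other probe set read 1253 on the knockout-labelled array and 1763 on the wild-type array, a log2 ratio of -0.49. Tap1 and Tap2 encode the chains of the transporter. Tap1 read 447 on the knockout-labelled array and 554 on the wild-type array, a log2 ratio of -0.31, and Tap2 read 424 on the knockout-labelled array and 366 on the wild-type array, a log2 ratio of 0.21. The subunits of the transporter therefore lay on opposite sides, each by less than 1.5-fold.

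Among the remaining members, Xaf1, a pro-apoptotic interferon target, read 329 on the knockout-labelled array and 419 on the wild-type array, a log2 ratio of -0.35, with 0.03, a bound, in its other probe set. Ifi27, which encodes a mitochondrial and nuclear envelope protein, read 3228 on the knockout-labelled array and 3424 on the wild-type array, a log2 ratio of -0.08. Ifi35 read 2089 on the knockout-labelled array and 2102 on the wild-type array, a log2 ratio of -0.01, with -0.37 and -0.26 in its other 2 probe sets.

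Agreement between probe sets was read from those above the floor on both arrays, which 11 members had at least 2 of. In 5 of the 11, Rsad2, Stat2, Tapbp, Ifi35 and Ifi27, all lay on the same side, and in each of these they read lower on the knockout-labelled array, with log2 ratios of the probe set used from -0.49 to -0.01. Over all 4497 genes read in this way, 22.8% had all probe sets lower and 20.6% all higher. The other 6, Ddx58, Irf8, Eif2ak2, Samhd1, Trim25 and Trim30a, had probe sets on both sides of 0. Gbp2, Gbp7 and Xaf1 each had a probe set under the floor on 1 array and were not counted. Ifitm1, Irf7, Usp18 and Oasl2, which make up most of the members at least 1.5-fold lower, were each read by a single probe set above the floor. Just inside the 1.5-fold limit lay Gbp7 at -0.71 and Oasl2 at -0.67, and just outside it Ifit3 at -0.54 and Rsad2 at -0.49.

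By the probe set used, the genes that make and receive the interferon signal mostly read lower where they entered, except Jak1 and Jak2. For several receptor genes another probe set read higher. Of 18 interferon ligand genes, 10 had a probe set and 7 of these, including Ifnb1 and Ifng, lay under the floor on both arrays. The 3 that entered did so at low signal and all read lower, with a median log2 ratio of -0.29, but Ifna1 and Ifna2 entered only through the wild-type array and could only read lower. Ifna1 read 133 on the knockout-labelled array, under the floor, and 272 on the wild-type array. Ifna2 read 26.3, under the floor, on the knockout-labelled array and 203 on the wild-type array. Ifnz read 198 on the knockout-labelled array and 210 on the wild-type array. Alpha interferon genes are close copies of each other, so these values are uncertain.

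Receptors, JAK kinases and Stat3 read lower in 8 of 10 entering genes, beside 53.0% of all entering genes. Their median log2 ratio was -0.14, and Jak2 and Jak1 had the highest values. Ifnar1, a chain of the type I receptor, read 674 on the knockout-labelled array and 957 on the wild-type array, a log2 ratio of -0.51, with -0.34 in its other probe set. Ifngr2, a chain of the interferon-gamma receptor, had a log2 ratio of -0.46, against 0.07 in its other probe set. Stat3, Il10rb and Ifnar2 were also lower only by the probe set used. Their other probe sets gave 0.14 and 0.54 for Stat3, 0.24 for Il10rb and 0.54 for Ifnar2. The count of 8 thus depended on the choice of probe set. Jak2 read 1218 on the knockout-labelled array and 759 on the wild-type array, a log2 ratio of 0.68, with 0.43 in its other probe set. Jak1 had 0.51, with -0.02 and 0.23 in its other 2 probe sets.

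Attenuators of the pathway were split, 6 lower and 6 higher of 12, with a median of -0.04. The phosphatase gene Ptpn2, whose product acts on JAK and STAT proteins, had a log2 ratio of 1.51, with 0.67 in its other probe set, and Ptpn1 had 0.18. Pias1 lay at -0.39, with other probe sets on both sides of 0, and Socs1 at -0.27, a bound. Of the sensing adaptors and kinases upstream of interferon, 8 of 12 were lower, beside 53.0% of all entering genes, with a median of -0.12. Ikbkb had 0.66 and Tbk1 0.37, while Irf3 had -0.37 and Traf6 -0.21, and Ikbkb, Irf3 and Traf6 each had a probe set on the opposite side.

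Interferon-induced genes that are not members also held more lower than higher readings. Of 64 such genes, 42 entered, of which 29, or 69.0%, read lower, beside 53.0% of all entering genes. Their median log2 ratio was -0.13, against -0.03 over all entering genes. Herc6, Slfn2, Ccl5, Slfn5, Gbp6 and Ifi27l2b entered only through the wild-type array and could only read lower. Tnfsf10 entered only through the knockout-labelled array and could only read higher. At least 1.5-fold lower were 4 of 42, beside the 6.26% of all entering genes, and 0 were at least 1.5-fold higher, beside 4.69%. Lgals9, a galectin, read 261 on the knockout-labelled array and 599 on the wild-type array, a log2 ratio of -1.20, and Herc6, the main ISG15 ligase of the mouse, was under the floor at 132 on the knockout-labelled array and read 378 on the wild-type array, at least 2.28-fold lower. The highest were Pnpt1 at 0.27, with a probe set on the opposite side, and Mndal, also at 0.27. MHC class I and immunoproteasome genes were lower in 10 of 15, or 66.7%, beside the same 53.0%, with a median of -0.22. B2m, the invariant light chain of MHC class I, read 16672 on the knockout-labelled array and 22488 on the wild-type array, a log2 ratio of -0.43, with -0.38 in its other probe set. The lower values included Erap1 at -0.36, against 0.71 in its other probe set, and the highest were H2-Q2 at 0.66 and Canx at 0.34.

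**Figure D5:**
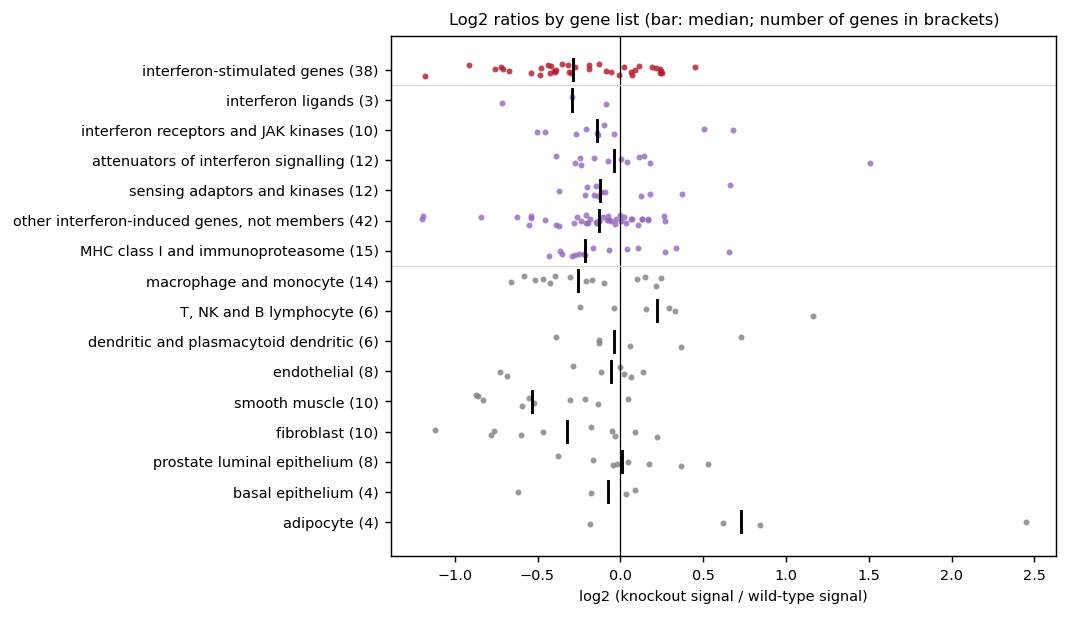
Log2 ratio of the knockout-labelled over the wild-type signal (x axis) for each entering gene (points) of 16 gene lists (y axis), with the median of each list as a black bar; red points are the interferon-stimulated genes, purple points other genes of the pathway and grey points markers of cell types. The medians of the interferon-stimulated genes, macrophage, fibroblast and smooth muscle lists lie left of 0, and those of the lymphocyte and adipocyte lists right of it.

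Markers of the cell types in the gland were read on the same arrays, where 53.0% of all entering genes read lower. Of the macrophage markers, Fcgr1 had a log2 ratio of -0.66 and Cd68 of -0.58. Cd68 is a bound, since it was under the floor at 163 on the knockout-labelled array and read 249 on the wild-type array. The 4 higher markers were Ctss at 0.25, Cd14 at 0.22, Csf1r at 0.15 and Adgre1 at 0.10. Aif1, Cd163 and Itgam lay under the floor on both arrays. Smooth muscle markers had a median of -0.54, with 9 of 10 lower and summed signals of 39712 on the knockout-labelled array and 53736 on the wild-type array. Fibroblast markers had a median of -0.32, with 8 of 10 lower and summed signals of 21390 on the knockout-labelled array and 25851 on the wild-type array. Endothelial markers had a median of -0.06, with 5 of 8 lower and summed signals of 2348 on the knockout-labelled array and 2664 on the wild-type array. Luminal epithelial markers had a median of 0.01, with 4 of 8 lower and summed signals of 155088 on the knockout-labelled array and 155924 on the wild-type array. Of 15 readable T, NK and B lymphocyte markers, 9 lay under the floor on both arrays, among them Cd3e, Cd4 and Cd79a. All of the 9 but Cd79a had their lower deposited signal on the knockout-labelled array. Of the 6 that entered, 4 were higher, with a median of 0.22. The summed signals of the 6 were 2846 on the knockout-labelled array and 1925 on the wild-type array. The largest difference was in Zap70, at 1429 on the knockout-labelled array and 639 on the wild-type array. Cd8a, at 0.29, had -0.32 in its other probe set. Adipocyte markers had the highest median of the cell type lists, 0.73. Their summed signals were 2876 on the knockout-labelled array and 1194 on the wild-type array. Of 4 entering genes, 3 were at least 1.5-fold higher, beside 4.69% of all entering genes. Of the 3, Adipoq is a bound, and Fabp4 gave 0.84, with 0.03 in its other probe set. Car3, a carbonic anhydrase abundant in fat, read 1278 on the knockout-labelled array and 234 on the wild-type array, 5.47-fold higher. Its log2 ratio was 2.45, with 1.19 in its other probe set. Basal epithelial markers had a median of -0.07, with 2 of 4 entering genes lower and summed signals of 3223 on the knockout-labelled array and 3683 on the wild-type array. Of the dendritic markers, 3 of 6 entering genes were lower, and Irf8 and Bst2 among them are also members. Whether these cell types have a part in the lower interferon-stimulated signals was not tested.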

How the data were processed

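The authors deposited linear probe-set signal intensities for 45101 probe sets on 2 arrays, and the submitters' processing notes name GCOS 1.4, the Affymetrix array software, without its settings. Each array had a trimmed mean of 500.0, leaving out 2% of probe sets at either end, which shows scaling of whole arrays. From these deposited intensities, log2 ratios of the knockout-labelled array over the wild-type array were computed with numpy 2.4.6 and pandas 2.3.3 in Python 3.11.15. No pseudocount was added.

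Genes were assigned through the platform annotation, in which 34945 of 45037 non-control probe sets had 1 symbol, 932 several and 9160 none. A floor at the 50th percentile replaced detection calls, which were not used here. A ratio with an array under the floor is a bound. All members are reported by role. Of each other list of the pathway the 2 highest and 2 lowest genes are named, and the cell markers named were chosen after their values were seen. With 1 array per group no test was made, and precision is limited by the number of arrays. The members and lists were chosen with earlier results of these data known. The calculations were checked on simulated signals with known folds. Alternatives covered scaling, including loess with statsmodels 0.14.6 and a span of 0.4, the floor, a pseudocount of 50, the choice of probe set and the fold threshold.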

Additional observations from a re-analysis of the deposited data

How the results depend on the processing

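Under 11 alternatives in scaling, floor, pseudocount, choice of probe set and bounds, the median log2 ratio of the members stayed below 0, from -0.33 without suffixed probe sets (names ending in _s_at, _x_at or _a_at) to -0.12 when each gene took its probe set nearest to 0, and below that of all genes. Between 65.8% and 71.4% of the members read lower, against 47.2% to 57.7% of all genes. The count of members at least 1.5-fold lower was 0, beside 3.01% of all genes, when the floor stood at the 70th percentile. There Ifitm1 and Irf7 became bounds of -0.28 and -0.18. At a 2-fold threshold the count was 1, beside 0.883% of all entering genes. In the other alternatives it lay between 4 and 8, against 6. These counts were 10.5% to 17.5% of the members, beside 4.58% to 12.0% of all genes, except with no floor, where 8 of 42, or 19.05%, stood beside 19.07% of all genes. No member was 1.5-fold higher in any of them. Gbp2 lay at -0.11 when its probe set nearest to 0 was taken. Of 26 lower members, 22 were lower under every alternative that gave a value, the exceptions being Ddx58, Irf8, Xaf1 and Ifi35. Of 12 higher members 10 were higher throughout, the exceptions being Samhd1 and Trim30a. No paired analysis was possible because each genotype has 1 array. Detection calls were not used, so signals near the floor, as for Oasl2 and Dhx58, are the least certain.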
